A study of Mus musculus with 6 samples.

Results

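KAP1 peaks shared by a pair of reciprocal hybrid mouse embryonic stem cell (ESC) lines, away from protein-coding genes and without a ZFP57 peak, made up 19672 of the 38713 KAP1 peaks called in the line JB1 (50.8%). JB1 came from a JF1 x B6 cross and BJ1 from a B6 x JF1 cross; B6 (C57Bl/6) and JF1 are inbred mouse strains, both lines were male, and each was 1 ESC line. No deletion or transgene is named for either line, and both were grown without feeders on gelatine with serum and leukemia inhibitory factor (LIF). Chromatin was immunoprecipitated with Abcam antibodies to KAP1 or ZFP57 and sequenced. Each line and antibody had 1 library, so no difference between the lines has a replicate check and no test across samples was possible. The peak lists gave positions alone, so the read depth and the height of a peak are unknown here. The 95% intervals given below cover only counting error over the items counted, such as peaks or copies of a sequence.

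The members were chosen by peak position in all 4 lists. A JB1 KAP1 peak was a member if it was autosomal, under 3000 bp wide, overlapped a BJ1 KAP1 peak by at least 1 bp, overlapped no ZFP57 peak of either line, overlapped no protein-coding gene (mm9, GENCODE M1) and lay more than 1000 bp from every protein-coding gene start. Of the 38713 peaks, 36174 were autosomal, 35042 of these were under the width limit, 30045 of these were shared with BJ1, 25881 of these had no ZFP57 peak and 19797 of these were outside genes. Among all autosomal JB1 KAP1 peaks, 86.2% overlapped a BJ1 KAP1 peak. The BJ1 KAP1 list was longer, with 72535 peaks, whereas the ZFP57 lists held 10667 peaks in JB1 and 1318 in BJ1. Lists of such different length were not shown to be equally sensitive, and a place without a ZFP57 peak may still bind it below the level of a call. In bulk chromatin such as this, binding in fewer cells and weaker binding in each cell cannot be told apart, and the lists do not separate the 2 alleles.

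KAP1 (also TRIM28) is a co-repressor that does not read DNA itself. It is brought to chromatin by zinc finger proteins with a KRAB domain, and it recruits the histone methyltransferase SETDB1, which deposits H3K9me3, and other silencing factors. In ESCs it is best known for the repression of endogenous retroviruses and other transposable elements, each of which is met by its own set of KRAB zinc finger proteins. ZFP57 is a KRAB zinc finger protein that binds the methylated hexamer TGCCGC and guides KAP1 to imprinting control regions, so a KAP1 peak without ZFP57 is a place where this partner was not called.

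The sequence of the members was read from mm9 (NCBI37), the B6 reference, and JF1 bases were not read. The 8 most recurrent 24-base sequences of the members were picked one after another, each as the one held by most members that held none of those already picked. They are shown because they define the most common kinds of DNA under these peaks, and they were held by 6559 members (33.3%). Each line below is 1 copy inside a member with 50 bases on either side, chosen for the closest match to the most common base at each flanking position among the copies in members, and the capitals mark the 24-base sequence that was searched on both strands.
Sequence 1, chr6:69658618-69658741, plus strand: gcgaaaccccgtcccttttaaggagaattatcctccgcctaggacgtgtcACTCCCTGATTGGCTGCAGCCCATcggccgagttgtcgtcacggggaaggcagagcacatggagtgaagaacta
Sequence 2, chr1:3761805-3761928, plus strand: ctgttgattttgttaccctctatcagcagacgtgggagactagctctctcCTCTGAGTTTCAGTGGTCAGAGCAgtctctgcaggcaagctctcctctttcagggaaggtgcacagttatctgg
Sequence 3, chr1:35849221-35849344, minus strand: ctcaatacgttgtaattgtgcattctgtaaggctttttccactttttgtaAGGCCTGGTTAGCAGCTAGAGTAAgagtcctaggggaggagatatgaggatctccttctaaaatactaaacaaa
Sequence 4, chr6:112017503-112017626, plus strand: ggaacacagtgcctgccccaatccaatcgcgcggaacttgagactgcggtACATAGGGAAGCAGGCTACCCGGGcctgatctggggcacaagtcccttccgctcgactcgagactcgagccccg
Sequence 5, chr3:15911859-15911982, plus strand: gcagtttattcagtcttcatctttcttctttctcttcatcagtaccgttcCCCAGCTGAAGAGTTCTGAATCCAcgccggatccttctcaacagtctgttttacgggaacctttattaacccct
Sequence 6, chr1:7989243-7989366, minus strand: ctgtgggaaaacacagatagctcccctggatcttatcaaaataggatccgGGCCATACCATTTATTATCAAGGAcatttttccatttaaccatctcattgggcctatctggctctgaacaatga
Sequence 7, chr1:154089501-154089624, minus strand: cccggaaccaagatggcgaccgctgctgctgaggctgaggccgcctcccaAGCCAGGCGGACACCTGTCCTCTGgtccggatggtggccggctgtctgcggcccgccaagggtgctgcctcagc
Sequence 8, chr16:19594489-19594612, minus strand: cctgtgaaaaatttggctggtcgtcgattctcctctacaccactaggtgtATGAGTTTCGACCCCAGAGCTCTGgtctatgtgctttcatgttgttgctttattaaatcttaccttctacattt

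All 8 copies lay between genes. The member around the copy of sequence 5 was 5.22 kb from the start of Gm5150, and that of sequence 8 was 11.2 kb from Olfr170, an odorant receptor gene. The others were farther out, from 100.0 kb (sequence 2, Xkr4) and 106 kb (sequence 1, Gm11143) over 144 kb (sequence 7, Tsen15), 206 kb (sequence 4, Lmcd1) and 275 kb (sequence 3, Hs6st1) to 910 kb (sequence 6, Pcmtd1). The flanks of the copies were nearly uniform for sequences 2, 3, 4, 6 and 7. Averaged over the 100 flanking positions, 92.3 to 97.8% of the copies in members carried the most common base there. The flanks varied more around sequence 1 (80.1%), sequence 5 (76.4%) and sequence 8 (62.7%). The printed copies matched the most common base at 97, 99 and 90 of the 100 positions for sequences 1, 5 and 8, and at every position for the others. No repeat annotation was used, so the sequences are given by number and not by the name of an element.

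A second set of 4 sequences of 14 bases was picked in the same stepwise manner from the central 300 bp of the 6947 members whose centre was not repeated at the level of 24-base words, as defined below. This set was added after the data had been seen. It is shown because it recurs in members whose centre shares few long exact matches with other places. The members around the printed copies were nearest to Gm5258 (8.06 kb), Vmn1r200 (10.3 kb), Olfr1182 (10.4 kb) and Etnk1 (47.4 kb). The capitals mark the 14-base sequence, with 30 bases on either side.
Sequence a, chr1:88228220-88228293, minus strand: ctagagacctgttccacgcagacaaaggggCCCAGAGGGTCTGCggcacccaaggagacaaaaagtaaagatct
Sequence b, chr13:22497536-22497609, plus strand: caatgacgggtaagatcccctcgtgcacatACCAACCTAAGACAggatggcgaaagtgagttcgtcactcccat
Sequence c, chr2:88276282-88276355, minus strand: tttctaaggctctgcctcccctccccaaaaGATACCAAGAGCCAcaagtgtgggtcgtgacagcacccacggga
Sequence d, chr6:143163383-143163456, plus strand: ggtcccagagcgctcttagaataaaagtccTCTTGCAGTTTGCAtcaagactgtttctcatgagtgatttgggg

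Most members sat on DNA present in many copies. The centre of a peak was called repeated if at least 50% of the 24-base words of its central 300 bp occurred at 10 or more places in mm9 on either strand. This was true of 12725 members (64.7%, exact Clopper-Pearson 95% interval 64 to 65.4%). Intergenic tiles of 300 bp, laid over the same autosomal space outside genes and away from gene starts (94967 tiles, 1 of every 50), were repeated in 14.4%. With 100 copies as the limit, 41.8% of the members and 9.54% of the tiles were repeated. At the other end, 20.1% of the members had a largely unique centre, in which under 50% of the words occurred at more than 1 place, against 78.5% of the tiles. Among all 36174 autosomal JB1 KAP1 peaks 63.3% were repeated, so the members were close to the list they came from. The typical word in the centre of a member occurred at a median of 51.0 places, with quartiles of 3.0 and 473. How reads that match several places were assigned is not given in the sources used here, and its part in these values was not tested.

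Repeated centres were more frequent in wide members. Among members 300 bp wide, the narrowest that the lists held, 50.0% were repeated, and the share was 59.7% at 600 bp, 72.9% at 900 bp, 83.5% at 1500 bp and 93.3% in the widest, 1 grid step of 150 bp under the limit. Over the members as a whole the median width in JB1 was 600 bp, with quartiles of 450 and 900 bp. The repeated members had a median of 750 bp and the others 600 bp.

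The other sets of KAP1 peaks differed from the members in how much of them was repeated. Of 3623 intergenic JB1 KAP1 peaks without ZFP57 that had no BJ1 partner, 59.3% were repeated (57.7 to 60.9%). Of 23447 such BJ1 peaks that had no JB1 partner, 32.4% were (31.8 to 33.0%). Shared peaks without ZFP57 in the bodies of protein-coding genes were repeated in 49.8% of 5670 cases, and the 539 shared promoter peaks in 10.4%. Shared intergenic peaks that did overlap a ZFP57 peak were repeated most often, in 2839 of 3220 cases (88.2%, 87.0 to 89.3%). The intervals of these sets did not overlap that of the members, but 1 library lay behind each list.

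**Figure D1:**
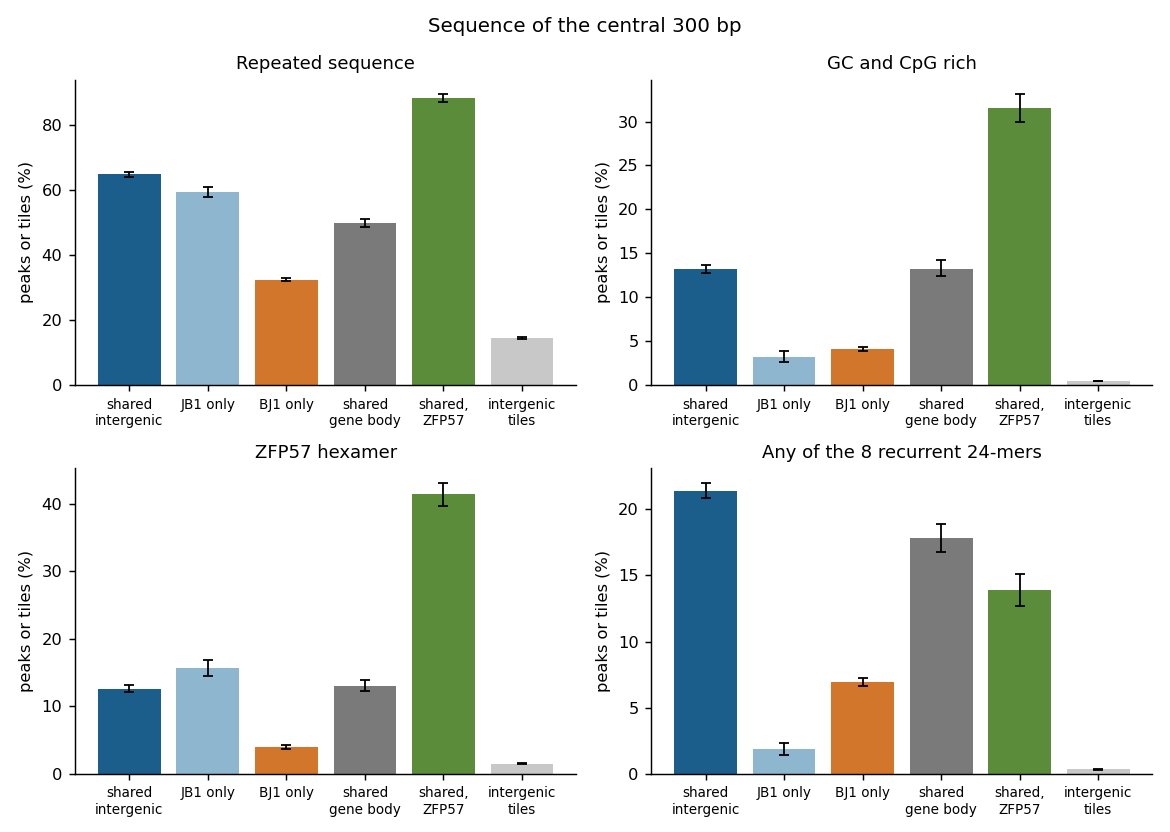
Share of peaks or tiles (%) in 6 sets (members, peaks found only in JB1 or only in BJ1, shared gene-body peaks, shared intergenic peaks with ZFP57 and intergenic tiles, without the promoter peaks) with a repeated centre, with a GC- and CpG-rich centre, with the ZFP57 hexamer in the centre and with any of the 8 recurrent 24-base sequences in the centre; bars are shares and error bars exact 95% intervals. Shared intergenic members (dark blue) were repeated in 64.7% against 14.4% of tiles, and of the sets drawn the shared peaks with ZFP57 (green) lead in every panel except the last, where the members have 21.4% by the choice of the sequences.

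The members, like the JB1 KAP1 list they came from, were richer in CpG than the space around them. Their central 300 bp had a median GC content of 47.7%, with 6 CpG dinucleotides, against 41.0% and 2 in the tiles. A centre was called GC- and CpG-rich if its GC content was at least 50% and its observed to expected CpG ratio at least 0.6, and 2597 members met this (13.2%, 12.7 to 13.7%) against 0.458% of the tiles. The share was 13.2% also in the shared gene-body peaks, whereas it was 3.2% in the peaks found only in JB1, 4.08% in those found only in BJ1, 31.5% in the shared intergenic peaks with ZFP57 and 43.4% in the shared promoter peaks. Within the 6947 members whose centre was not repeated it was 3.14%, and 2379 of the 2597 CpG-rich members were repeated ones. Over all autosomal JB1 KAP1 peaks the share was 14.4%, with medians of 48.0% GC and 6 CpG. The members were thus close to their list in these traits.

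TGCCGC, the core of the ZFP57 motif, was present in the centre of many members although none had a ZFP57 peak. It was found on either strand in 2475 members (12.6%, 12.1 to 13.1%), against 1.48% of the tiles. In the shared intergenic peaks with a ZFP57 peak it was found in 41.4% (39.7 to 43.1%), so more than 3 times as often as in the members. Where the centre was not repeated the shares were 67.7% with ZFP57 and 11.5% in the members, and where it was repeated 37.9% and 13.1%. Read over whole peaks, the shares were 21.6% and 88.5%, and the median width of the peaks with ZFP57 was 1200 bp, wider than that of the members. The peaks found only in JB1 held the hexamer in 15.7% and those found only in BJ1 in 3.94%. All autosomal JB1 KAP1 peaks, those with ZFP57 included, held it in 16.8%. The methylation of these hexamers was not measured. GGCCGC, a variant of the motif, was in the centre of 7.51% of the members and 1.05% of the tiles. All autosomal JB1 KAP1 peaks held it in 8.75%, so the members were not above their list. It was in 7.64% of the shared gene-body peaks, 8.79% of the shared intergenic peaks with ZFP57 and 27.5% of the shared promoter peaks. The peaks found only in JB1 had 6.24% and those found only in BJ1 4.51%.

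Words of other DNA-binding proteins, none of which holds another of the set, were more or less frequent than in the tiles by turns. AAGATGGC, the core of the motif of YY1, a zinc finger protein that can activate or repress, was in 11.6% of the members (11.1 to 12%) and 2.9% of the tiles. It was rarer in the peaks found only in JB1 (3.01%) and in BJ1 (6.69%) and more frequent in the shared intergenic peaks with ZFP57 (14.2%, 13.0 to 15.4%). Among centres that were not repeated the shares were 4.51% of the members and 1.88% of the tiles. TGACGTCA, the cyclic AMP response element, was in 0.513% of the members and 0.154% of the tiles. This gap lay in the repeated centres (0.723% and 0.263%), whereas among the others the shares were 0.13% and 0.135%, and 4.5% of the members with sequence 1 held the word. The E-box CACGTG was in 3.49% and 2.59%, and in 4.07% and 2.56% of the centres that were not repeated. All autosomal JB1 KAP1 peaks held AAGATGGC in 9.58%, TGACGTCA in 0.777% and CACGTG in 3.31%.

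The words of pluripotency and growth factors are given over all centres and then over those that were not repeated, since the members and the tiles hold such different shares of repeated sequence. The octamer ATGCAAAT, read by POU factors such as OCT4, was in 1.48% of the members and 2.85% of the tiles, and in 1.81% and 2.51% where the centre was not repeated. The SOX word AACAATG was in 5.84% and 6.29%, and in 3.99% and 6.21% where it was not repeated. The ETS word GGAAGTG was in 2.49% and 5.28%, and in 4.36% and 5.29%. These 3 words were thus rarer in the members that were not repeated than in such tiles. For other words the direction or the size of the gap changed with the split. The AP-1 word TGACTCA was in 3.24% of the members and 4.73% of the tiles, but in 6.33% (5.77 to 6.93%) and 5.34% where the centre was not repeated, and in 1.56% and 1.09% where it was. TCAAGGTCA, read by ESRRB, was in 0.6% and 0.562%, but in 1.22% (0.978 to 1.51%) and 0.629% where the centre was not repeated. The KLF word CCACACCC was in 2.08% (1.88 to 2.29%) of the members and 1.63% of the tiles, and in 2.42% and 1.7% where the centre was not repeated. AGGGGGC, part of the CTCF motif, was in 1.72% and 2.01%, but in 3.7% (3.27 to 4.17%) and 2.23% where the centre was not repeated. Such centres of all autosomal JB1 KAP1 peaks held the AP-1 word in 5.93%, TCAAGGTCA in 1.06%, CCACACCC in 2.38% and AGGGGGC in 3.94%. Peaks found only in BJ1 had 7.29%, 1.2%, 3.89% and 4.87%, and those only in JB1 5.02%, 1.09%, 2.04% and 2.04%. So these gaps to the tiles were also seen over the whole list. The octamer, SOX and ETS words were in 1.8%, 4.21% and 5.04% of the list's centres that were not repeated. A match is a description of letters and not a bound site, and its absence says only that these letters were not in the window.

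The 8-base words that stood out most were CpG-rich ones. Among words held by at least 2% of the members, the 10 with the highest ratio to the tiles all held CG, with ratios from 45.7 to 56.5. They were picked by this ratio, so the choice fixed that it was high. Some of them overlap in letters, as GCGGCGCC and CGGCGCCA do. GCGGCGCC led, in 3.33% of the members and 0.059% of the tiles. CCGGATCC was the most frequent of the 10, in 6.29% of the members and 0.133% of the tiles, and it stands in the copies printed for sequences 5 and 6. Among members that were not repeated the leading words, picked in the same way, were others. GCCGCAGA was in 5.14% of them against 0.196% of the tiles of that kind, CTGCGGCA in 5.54% against 0.213%, and AACGGGTC in 2.48% against 0.0775%. The copy printed for sequence a reads ctgcggca where its capitals end, which holds TGCCGC on the other strand, and the copy printed for sequence b holds atgacggg, another of these 10 words.

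The 8 recurrent 24-base sequences marked kinds of member that were mostly separate as peaks, although sequences 1, 6 and 3 often lay near each other. Sequence 1 was held by 1445 members, sequence 6 by 902, sequence 2 by 898, sequence 3 by 896, sequence 4 by 845, sequence 5 by 803, sequence 7 by 696 and sequence 8 by 342. Of the 6559 members with any of them, 262 held 2 or more. In the central 300 bp at least 1 of the 8 was found in 21.4% of the members and 0.324% of the tiles, a gap that the choice of the sequences fixed. In sets that were not used to choose them, the share was 17.8% in shared gene-body peaks (16.8 to 18.9%), 13.9% in shared intergenic peaks with ZFP57, 6.93% in peaks found only in BJ1 and 1.85% in peaks found only in JB1.

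Nearly every copy of several of these sequences in the genome lay in a KAP1 peak of both lines. Sequence 3 occurred at 1434 places in mm9, of which 1404 (97.9%) lay in a JB1 KAP1 peak and 1426 (99.4%) in a BJ1 KAP1 peak. Sequence 1 occurred at 6092 places, with 5909 (97%) in JB1 and 5708 (93.7%) in BJ1. Sequence 6 had 1830 of 1958 copies in JB1 peaks (93.5%) and 1864 in BJ1 peaks (95.2%), and sequence 5 had 1397 of 1503 (92.9%) and 1487 (98.9%). For sequence 8 the numbers were 625 (94.3%) and 617 (93.1%) of 663. The copies in members lay by the rule in a JB1 peak that was shared with BJ1 (896 of the 1434 copies of sequence 3 and 1449 of the 6092 copies of sequence 1).

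For 3 sequences the lines differed widely. Sequence 4 had 6809 copies, of which 2616 lay in a JB1 KAP1 peak (38.4%, 37.3 to 39.6%) and 6427 in a BJ1 KAP1 peak (94.4%, 93.8 to 94.9%). Sequence 2 had 1280 of 2465 copies in JB1 peaks (51.9%) and 1986 in BJ1 peaks (80.6%). Sequence 7 had 1882 of 2517 in JB1 peaks (74.8%) and 2366 in BJ1 peaks (94.0%). All 3 were higher in BJ1, the line with the longer list, whereas sequence 1 was higher in JB1 and the intervals of sequence 8 overlapped (92.2 to 95.9% and 90.9 to 94.9%). With 1 library a line, a difference of the lines and a difference of the libraries cannot be told apart. The intervals treat each copy as separate, although neighbouring copies can share 1 peak, so they may be too narrow.

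**Figure D2:**
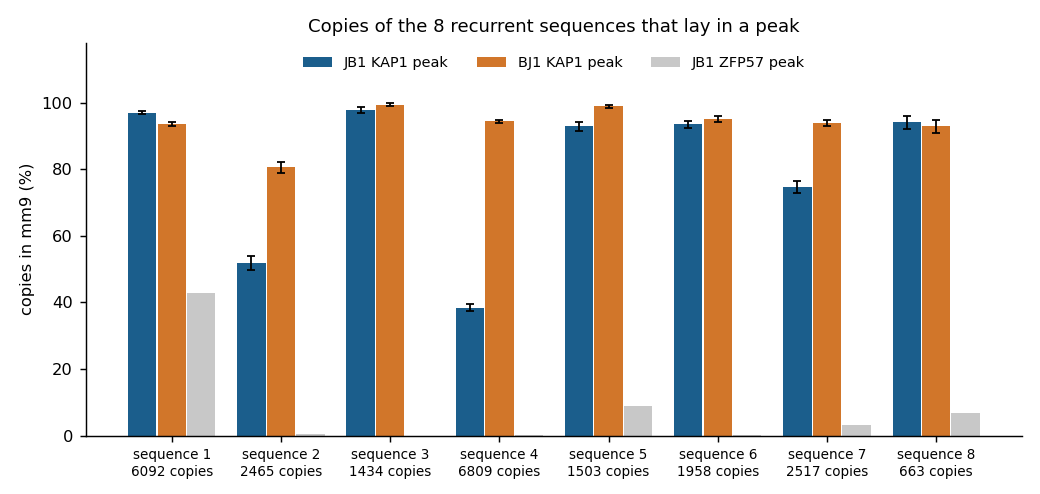
Share (%) of all mm9 copies of each recurrent sequence that lay in a JB1 KAP1 peak (blue), a BJ1 KAP1 peak (orange) or a JB1 ZFP57 peak (grey). Error bars on the KAP1 bars are exact 95% intervals that treat each copy as separate. Sequence 4 stands at 38.4% in JB1 and 94.4% in BJ1, and sequence 1 alone has a tall ZFP57 bar, at 42.8%.

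Copies inside protein-coding genes, which cannot lie in a member, showed the same gaps at sequences 2, 4 and 7. Of the 291 such copies of sequence 3, 99.7% lay in a JB1 KAP1 peak and 100.0% in a BJ1 KAP1 peak. Of the 1243 of sequence 4 it was 40.5% and 95.9%, of the 361 of sequence 2 57.9% and 86.7%, and of the 467 of sequence 7 76.4% and 96.4%. Sequence 1 had 95.9% and 91.8% of its 1093 copies in genes under peaks of JB1 and BJ1. Sequence 8, slightly higher in JB1 over all copies, had 98.5% and 100.0% of its 65 copies in genes under them. These peaks were not used by the rule, although reads of near-identical copies cannot always be told apart.

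Sequence 1 had by far the most copies in ZFP57 peaks. Of its 6092 copies, 2607 (42.8%) lay in a JB1 ZFP57 peak and 151 (2.48%) in a BJ1 ZFP57 peak. Of its copies that began inside a JB1 KAP1 peak, 20.4% were in autosomal peaks too wide for the rule, 40.1% were in narrower ones with ZFP57 and 24.8% were in members. The members that did hold it had TGCCGC in their central 300 bp in 49.0% of cases, against 12.6% of all members. The other sequences lay in JB1 ZFP57 peaks in 8.85% (sequence 5), 6.79% (sequence 8), 3.3% (sequence 7) and under 1% of their copies (0.568% for sequence 2, 0.264% for sequence 4 and 0.204% for sequence 6). No copy of sequence 3 lay in one, and 0 of 1434 lay in a BJ1 ZFP57 peak.

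Sequences 6 and 3 were laid out in a fixed order along the DNA, with sequence 1 often upstream of both. In members, sequence 6 stood upstream of sequence 3 on the same strand in 595 pairs within 10 kb. In 566 of these the distance was within 50 bp of its median of 1536 bp, and 2 pairs had the other order. Sequence 1 stood 1405 bp upstream of sequence 6 (median of 380 pairs, 370 of them within 50 bp of it) and 2941 bp upstream of sequence 3 (median of 345 pairs, 300 of them within 50 bp). In the other order, with sequence 1 downstream, 194 pairs with sequence 6 and 210 with sequence 3 were found at varied distances. A second copy of sequence 1 on the same strand lay at a median of 4899 bp from the first (189 of 192 consecutive pairs). Sequences 6 and 3 fell in 1 member in 17 of their 595 pairs, and sequences 1 and 6 in 184 of their 380. These counts leave out the peaks that the rule dropped for width or ZFP57. Of the members with sequence 3, 76.7% lay within 10 kb of a ZFP57 peak, and of those with sequence 6, 61.2%, against 24.7% of all members.

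Sequences 4 and 7 were repeated in tandem. Among copies in members within 10 kb of each other, in the same or in neighbouring members, consecutive copies of sequence 4 were on the same strand in 980 of 981 pairs, and 208 bp was the most common distance (679 pairs, 69.3%). Consecutive copies of sequence 7 were on the same strand in 519 of 521 pairs, 465 of them (89.6%) 214 bp apart. A member held up to 7 copies of sequence 4 and up to 9 of sequence 7, and 574 and 352 members held 2 or more. Sequence 5 stood more than once in 51 members, and 81 bp was the most common distance over its 99 pairs on the same strand, within and between members (28 pairs). Sequences 2, 3 and 6 never stood more than once in a member.

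**Figure D3:**
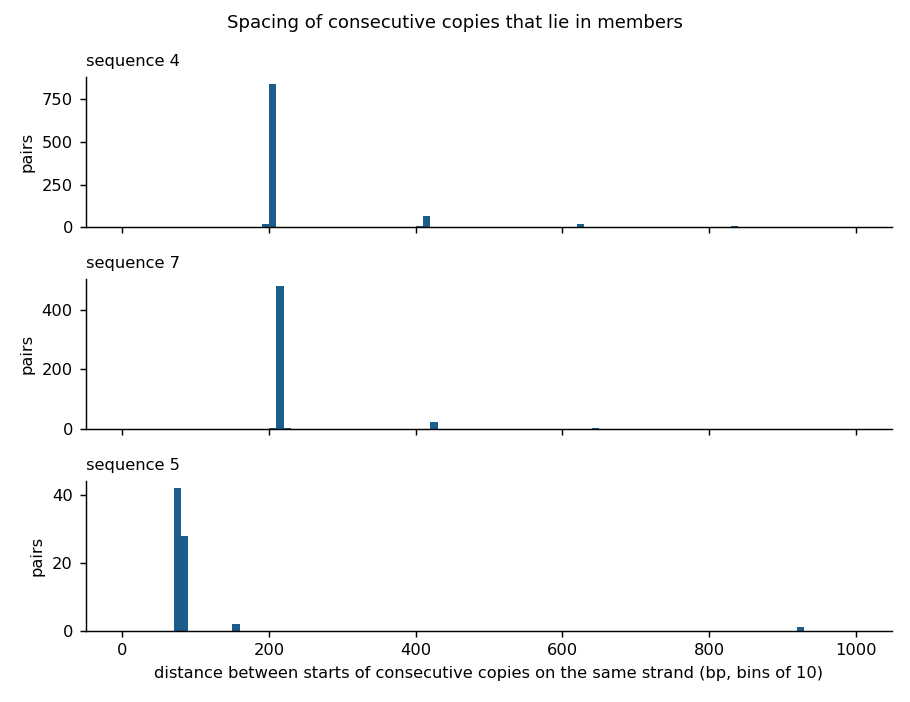
Number of pairs of consecutive copies on the same strand, each copy in a member and the pair in the same or in neighbouring members, by the distance between their starts (bp, bins of 10 up to 1000), for sequences 4, 7 and 5. Sequence 4 has a single tall bin at 208 bp with small ones at its multiples, sequence 7 one at 214 bp, and sequence 5 a pair of neighbouring bins around 81 bp.

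These kinds of member differed in base composition and in the words they held. Members with sequence 7 had a median of 63.0% GC and 16 CpG in their centre, and 93.1% of them held GGCCGC and 57.3% AAGATGGC, both of which stand in the flanks of its printed copy. Members with sequence 4 had 62.7% GC and 17 CpG and held AAGATGGC in 0.118% and GGCCGC in none. Members with sequence 2 held AAGATGGC in 63.0% and had 59.0% GC. At the low end, members with sequence 3 had 41.3% GC and 3 CpG, and 44.8% of them held the SOX word AACAATG.

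The position of a sequence within its peak also varied. The copy of sequence 3 nearest to the centre lay at a median of 55.0 bp from it, and in 76.5% of its members it fell in the central 300 bp. The values were 60.0 bp and 90.8% for sequence 4, and 54.0 bp and 80.8% for sequence 5. Sequences 1, 2 and 8 lay farther out, at 234, 179 and 252 bp, with 34.5%, 35.7% and 33.0% in the central window.

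The 4 short sequences were held by 617 of the 6947 members that were not repeated (8.88%, 8.22 to 9.58%). Sequence a was in the centre of 188 of them, b in 160, c in 135 and d in 134, against 11, 11, 1 and 17 of the 81256 tiles that were not repeated, a gap that the choice of the sequences fixed. Among peaks that had no part in their choice, at least 1 was in 4.39% of the shared gene-body peaks, 4.72% of the shared intergenic peaks with ZFP57, 2.16% of the BJ1-only peaks and 1.56% of the JB1-only peaks, counted among those that were not repeated. Taken singly, b alone exceeded its share of the members (2.3%) in any of these sets, at 2.62% (1.27 to 4.77%) of those with ZFP57. Sequence d, at 1.41%, made up most of the BJ1-only value. Sequence c occurred at 326 places in mm9, with 273 (83.7%) in a JB1 and 298 (91.4%) in a BJ1 KAP1 peak and none in a ZFP57 peak. Sequences a and d were higher in BJ1, a with 409 of its 909 copies in JB1 and 562 (61.8%) in BJ1 KAP1 peaks, and d with 29.9% and 71.5% of 1202. Sequence b had 44.9% and 43.1% of its 1746 copies in the peaks of JB1 and BJ1.

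The rule asked for an overlap of the peaks of both lines, so the extent of the overlap is given as a description. At least 50% of the JB1 peak was covered by BJ1 KAP1 peaks in 98.9% of the members, both edges lay within 1 step of 150 bp of those of the widest BJ1 partner in 65.5%, and 21.4% had identical edges. All peak edges in the lists lay on this 150 bp grid, so that any overlap covers 50% of a member of 300 bp. A BJ1 peak was matched by more than 1 member in 1029 of 18512 cases, by up to 8.

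Where the edges differed, the BJ1 peak was more often the wider one. It was wider than the JB1 peak in 10783 members (54.8%, 54.1 to 55.5%), equal in 26.7% and narrower in 18.5%. Among all autosomal JB1 KAP1 peaks found in BJ1, 50.8% had a wider BJ1 peak, 4 percentage points fewer than among the members. The median widths were 600 bp in JB1 and 750 bp in BJ1, where the widest partner reached 10350 bp and 304 partners were 3000 bp or wider. The width limit applied to JB1 alone. With the rule turned around, so that the limit and the choice of the widest partner fell on the other line, the BJ1 peak was wider at 46.5% of 19379 peaks, equal at 27.2% and narrower at 26.2%.

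The difference in width was unequal between the kinds of member. Members with sequence 4 had medians of 450 bp in JB1 and 900 bp in BJ1, and the BJ1 peak was wider in 89.7% of them. Members with sequence 6 had medians of 900 and 1500 bp. Members with sequence 1 had 1050 bp in both lines and a wider BJ1 peak in 30.4%, but a narrower one in 38.8%. Those with sequence 8 had 1050 bp in both, with a wider BJ1 peak in 26.3% and a narrower one in 42.7%, so in both kinds the JB1 peak was more often the wider one. Members that held none of the 8 and were not repeated had medians of 600 and 750 bp, with a wider BJ1 peak in 56.9%.

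**Figure D4:**
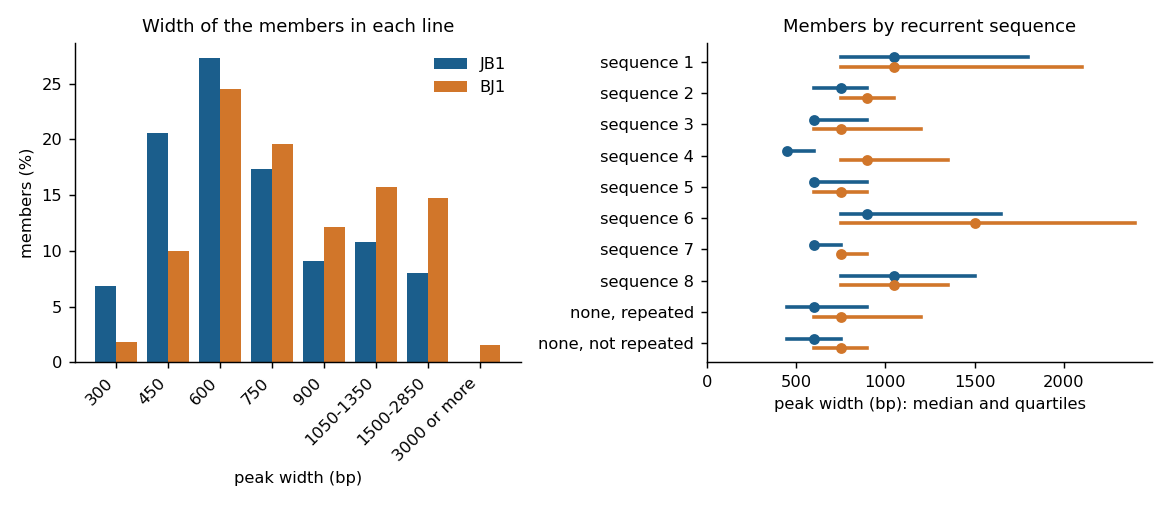
Left, share of members (%) by peak width (bp) in JB1 (blue) and in the widest BJ1 partner (orange). Right, median width (point) and quartiles (line) in each line for members with each recurrent sequence and for members with none; sequence 4 shows the clearest gap, 450 against 900 bp, and sequences 1 and 8 none in the median.

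Members lay at all distances from genes. The median distance to the nearest protein-coding gene start was 76.0 kb (73.6 to 78.7 kb, order-statistic 95% interval), with quartiles of 23.9 and 266 kb, against 107 kb in the tiles. It was 94.4 kb for the peaks found only in JB1, 62.3 kb for those found only in BJ1 and 86.3 kb for shared intergenic peaks with ZFP57. Between 5 and 20 kb from a gene start lay 18.1% of the members and 14.2% of the tiles. Within 1 to 5 kb it was 3.68% and 5.11%, and beyond 500 kb 13.6% and 15.6%. Members that were not repeated lay closer to gene starts, at a median of 52466 bp (49990 to 55310 bp), than repeated ones, at 94478 bp (90345 to 99097 bp). By sequence the medians ran from 55.9 kb (sequence 8) to 187 kb (sequence 4). Other annotated genes were overlapped by 702 members (3.57%) and by 3.92% of the tiles.

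**Figure D5:**
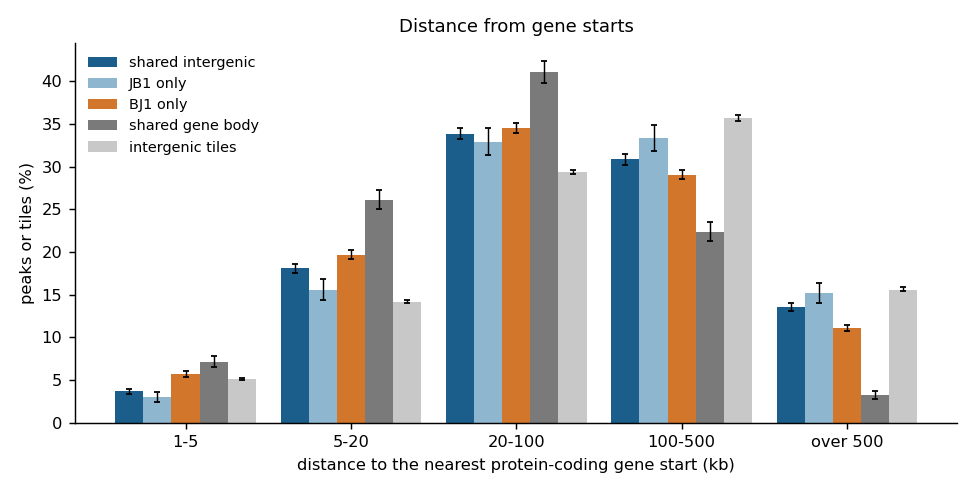
Share of peaks or tiles (%) by distance (kb) to the nearest protein-coding gene start, for members, peaks found in 1 line, shared gene-body peaks and intergenic tiles; error bars are exact 95% intervals. The members exceed the tiles from 5 to 100 kb and fall below them nearer than 5 kb and beyond 100 kb.

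The spacing of the members along the chromosomes was uneven. Another member lay within 10 kb of 55.5% of them (54.8 to 56.2%) and within 1 kb of 31.8%, while the median gap to the next member was 31.7 kb. Some of these neighbours were parts of 1 BJ1 peak, since 1029 BJ1 peaks were matched by 2 or more members. Per Mb of intergenic space there were 13.8 members over all autosomes, from 11.3 on chromosome 2 to 17.9 on chromosome 7. Of 2398 windows of 1 Mb, 119 held no member, and the median was 6 members. The fullest window, chr12:20000001-21000000, held 52. It was followed by chr7:34000001-35000000 with 51, in the cluster of the androgen-binding protein genes Abpa, Abpb, Abpd, Abpg and Abpz, and by chr12:19000001-20000000 with 48. A further 4 windows had 46 each. They were chr12:24000001-25000000, chr13:22000001-23000000 with a cluster of Vmn1r vomeronasal receptor genes, chr16:3000001-4000000 where the odorant receptor gene Olfr161 was nearest to 42 of them, and chr7:11000001-12000000 with the Zscan4 genes. Between 19 and 31 of the members in each of these windows were repeated.

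The genes nearest to most members stood beside long stretches of intergenic space, 1.22 to 2.73 Mb each. Pcmtd1 was nearest to 62 members at 8.45 to 1104 kb, followed by Cdh20, a cadherin, Gm17391 and Hnf4g, a nuclear receptor, with 51 each. Gm17624, Gm8910 and the neural cell adhesion gene Ncam2 had 44 each, Hace1 had 43, and the cadherins Cdh10 and Cdh9 42 each. Of the 44 members nearest to Ncam2, 42 were repeated. In all, 5850 of the 21418 autosomal protein-coding genes were nearest to at least 1 member, with a median of 2.

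Gene families differed in how many members lay beside them per Mb of intergenic space, against 13.8 over all autosomes. Vmn1r and Vmn2r genes, which code for vomeronasal receptors, were nearest to 590 members (3.0%) and to 1.2% of the tiles, or 34.5 members per Mb. Olfr genes, the odorant receptors, were nearest to 658 (3.34%) and 1.9%, or 24.3 per Mb. The Zfp zinc finger genes were nearest to 366 (1.86%) and 1.32%, and predicted genes named Gm to 14.7% and 12.6%. Pcdh genes had 0.89% and 0.974%, histone genes, with 13 members or 26.3 per Mb, 0.0661% and 0.0347%, defensin genes, with 36 members or 23.1 per Mb, 0.183% and 0.11%, and Hox genes, with 3 members, 0.0153% and 0.0284%.

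Genes of pluripotency, here transcription factors, signalling genes and chromatin factors of ESCs, had a member nearby about as often as other genes. Of 31 genes of a pluripotency list that are autosomal protein-coding genes of the annotation, 10 (32.3%, 16.7 to 51.4%) had a member within 50 kb of their start, against 35.3% of all autosomal protein-coding genes. The nearest lay 3.83 kb from Smad7, 4.28 kb from Tbx3, 6.4 kb from Nr5a2, 13.4 kb from Tet1 and 13.8 kb from Mycn. It lay 17.7 kb from Sall4, 22.8 kb from Pou5f1, which codes for OCT4, 33.9 kb from Klf5, 34.5 kb from Zfp42 and 41.6 kb from Lin28a. Of these 10 nearest members, the one near Pou5f1 alone was repeated. Those near Smad7, Tbx3, Nr5a2, Sall4, Pou5f1, Zfp42, Tet1 and Lin28a were each 600 bp wide in JB1. Of 32 genes that mark other lineages, 3 had a member within 50 kb, namely Olig2, Nkx2-5 and Hand1 (9.38%, 1.98 to 25%). This interval overlapped that of the pluripotency list and lay below the 35.3% of all genes, but at 20 kb (6.25%, 0.766 to 20.8%) and at 100 kb (40.6%, 23.7 to 59.4%) the intervals held the shares of all genes, 16.5% and 55.6%.

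Of the 45 members that tied as the widest in JB1, the 10 with the widest BJ1 peaks all lay on repeated sequence. They were 1 step of 150 bp under the limit of 3000 bp in JB1, and up to 4200 bp wide in BJ1. The first by BJ1 width were chr17:67776751-67779600 (4200 bp, 73.0 kb from Ptprm), chr6:69656101-69658950 (4050 bp), in which the printed copy of sequence 1 lies, and chr4:28343701-28346550 (3900 bp, 394 kb from Epha7). The others were nearest to Car1, Cypt12, Gm12695, Gm3991, Vpreb2, Gbe1 and Ppp6c. In all, 231 peaks that met the rest of the rule were left out as too wide, 43 of them at 3000 bp. Nearest to a gene start was a member at 1010 bp, and the farthest peak left out for this lay at 999 bp. ZFP57 peaks came as close as 1 bp to 44 members.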

How the data were processed

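KAP1 and ZFP57 were each profiled by ChIP-seq once in either ESC line, and 2 libraries of input chromatin were set aside. The authors mapped the reads to mm9 and called peaks with MACS. Per the labels, CASAVA 1.8.2, Bowtie 0.12.7, SAMtools 0.1.18 and bedtools 2.14.3-1 were used, and the treatment of reads with several matches is not given in the sources used here. The 4 deposited lists give peak positions and no count, score or fold, so depth is unknown. Stated intervals cover counting error over the items counted, such as peaks or copies of a sequence, which are not replicates.

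Members were found with the rule given above, on mm9 and GENCODE M1, in Python 3.11.15 with numpy 2.4.6, pandas 2.3.3, scipy 1.17.1 and numba 0.67.0, and plots were drawn with matplotlib 3.10.9. Copy number was counted for every 24-base word over the mm9 autosomes, X and Y, on both strands. Of 4747847 intergenic tiles of 300 bp, 94967 were used. Shares have exact Clopper-Pearson 95% intervals and medians have order-statistic 95% intervals. Interval overlaps, covered bases, distances, 24-base copy number and the word search were tested on simulated data, with 6 checks and 0 wrong values. The picking of recurrent sequences, their pairing and the matching of the widest partner were not part of these checks. No test across samples was made.

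Named items were the 10 widest members, the 5 fullest windows of 1 Mb with ties, the 10 genes nearest to most members, the pluripotency genes with a member within 50 kb, the 8 recurrent sequences and the 10 leading words of 8 bases in each set. The members and the lists were chosen with earlier results of these data known, and the 4 sequences of 14 bases were added after the data had been seen.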

Additional observations from a re-analysis of the deposited data

How the results depend on the processing

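The number of members, 19672, ranged from 13501 to 19903 when at least 50% overlap, a limit of 5000 bp from gene starts, no gene of any kind, BJ1 as the starting list, no width limit or only the widest 50% of each list was asked for. The lowest number came with the widest 50%. Of the shares and medians, those on GC content and pluripotency genes kept within their intervals, and 14 values moved beyond theirs. With only the widest 50%, the median width in JB1 was 750 bp, the share with a wider BJ1 peak 48.6%, the median distance to a gene start 71.8 kb, the share within 10 kb of another member 54.3%, the share with TGCCGC 13.3% and the repeated share 69.3%. Starting from BJ1, the share with a wider BJ1 peak was 46.5%, that within 10 kb 54.4% and that with TGCCGC 11.8%. The share with a BJ1 peak wider by more than 1 step of 150 bp was 31.9%. The median distance was 83.2 kb beyond 5000 bp from gene starts, 78.3% of the members lay within 50 kb of another, 21.6% held TGCCGC in the whole peak and 41.8% were repeated at 100 copies. Starting from BJ1, that peak was narrower in 26.2%, so wider BJ1 peaks still outnumbered narrower ones. No paired analysis was possible because each line and antibody had 1 library. The depth of the libraries was unknown, and the longer BJ1 list and the handling of reads from repeated DNA limit what the shares of copies under peaks can show.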
